A study of Mus musculus with 12 samples.

Results

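The genes described here are 10 components of MHC class I antigen presentation, listed by their role in the pathway. They were chosen by name with earlier results of these libraries in view, among them the differences between Vps15KO and WT cells, and the rule itself uses no threshold. They are the heavy chain genes H2-K1 and H2-D1, the light chain gene B2m, the peptide transporter genes Tap1 and Tap2, the tapasin gene Tapbp, the immunoproteasome genes Psmb8, Psmb9 and Psmb10, and the regulator Nlrc5. All 10 were found among the 32721 genes of the deposited table, and all 10 were among the 14279 genes with enough signal to be tested. The cells were mouse embryonic fibroblasts of the line MEF Vps15f/f, whose Vps15 alleles are floxed. Vps15KO cells had received adeno-CRE, a virus that delivers the recombinase which excises floxed DNA, and WT cells had received adeno-GFP. Both were collected 5 days after transduction, kept in basal medium or moved for 2 h to EBSS, a salt solution with glucose that lacks amino acids. Per the labels the growth medium was high glucose DMEM with serum, so the loss of amino acids, the loss of serum and the change of glucose cannot be told apart. Each of the 4 groups (Vps15KO in EBSS, WT in EBSS, Vps15KO in basal medium, WT in basal medium) had 3 libraries. Every cell in the study carried floxed alleles and an adenoviral vector, and adeno-CRE and the loss of Vps15 cannot be told apart here. The library names read pLEX_GFP and pLEX_CRE, a prefix that no label explains.

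Class I molecules show fragments of a cell's own proteins to T cells. The proteasome cuts proteins into peptides, and its inducible catalytic subunits (Psmb8, Psmb9 and Psmb10) take the places of Psmb5, Psmb6 and Psmb7 and change where the cuts fall. The TAP transporter, a pair of Tap1 and Tap2, moves peptides into the endoplasmic reticulum, where tapasin holds the transporter next to an empty heavy chain and helps to select a peptide. Heavy chains are stable at the surface only with beta-2 microglobulin (B2m). Nlrc5 acts in the nucleus on the promoters of class I genes, and interferons raise the whole pathway in fibroblasts. Vps15, the subunit encoded by Pik3r4, is needed for the activity of the class 3 PI3K, a lipid kinase of autophagy and endosomal traffic.

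The libraries held 21278921 to 21698584 reads in genes. Values are given as normalized counts, the reads of a gene divided by the size factor of its library, and differences as log2 differences of the deposited values ± SE. Pik3r4 had 623, 602 and 672 normalized counts in Vps15KO cells in EBSS, against 959, 891 and 834 in WT cells in EBSS (log2 difference −0.48 ± 0.07). In basal medium it had 633, 699.8 and 640.3 in Vps15KO cells, against 864, 879 and 884 in WT cells (−0.40 ± 0.07), so the genotypes did not overlap in either medium. The deleted exons are not named by the labels, so reads outside them could remain. WT basal replicate 2 and WT EBSS replicate 1 stood apart from the other libraries of their groups in reads per gene, not in total reads. The measure was the mean chi-square per gene between 2 libraries. It was 22.1 and 21.0 for pairs with WT basal replicate 2, against 3.24 for the other pair. For pairs with WT EBSS replicate 1 it was 8.45 and 12.2, against 3.92. Fibroblast markers summed to 7333 to 7815 RPM (reads per 1000000 reads in genes) in Vps15KO EBSS libraries, 13832 to 14842 in WT EBSS, 7931 to 8363 in Vps15KO basal and 15586 to 16479 in WT basal, with Vim the most abundant of 8, and 6 of the 7 tested were called lower in Vps15KO cells in each medium, with Thy1 at most 3.18 normalized counts. Macrophage markers summed to 125 to 156, 36.6 to 40.9, 139 to 180 and 38.6 to 42.0 RPM in the same order of groups. Nearly all of that was Cd68, a lysosomal protein gene, while Ptprc, Adgre1, Itgam and Lyz2 were near 0. Of these 8 markers 2 had enough reads to be tested. Both were called higher in Vps15KO cells in basal medium (0.37 and 1.94) and 1 in EBSS (0.04 and 1.75). Marker sums of dendritic cells were at most 9.50 RPM and those of lymphocytes, endothelium and epithelium at most 1.13, 1.21 and 1.20, with Cd3e at 0 in every library. These are bulk samples, in which a change in the number of cells of a type and a change in RNA per cell cannot be told apart.

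Promoter sequence could be read for 8 of the 10 genes in the RefSeq promoter table (build GRCm38.p6, 250 bases before to 50 bases after a gene's start). The windows of the pair of heavy chain genes are shown first because they are near copies of each other around the class I enhancer. They share an unbroken run of 47 bases, given in capitals. The H2-K1 window shown is 1 of 2 in the table.
H2-K1 (chr17:34000298-34000597, minus strand): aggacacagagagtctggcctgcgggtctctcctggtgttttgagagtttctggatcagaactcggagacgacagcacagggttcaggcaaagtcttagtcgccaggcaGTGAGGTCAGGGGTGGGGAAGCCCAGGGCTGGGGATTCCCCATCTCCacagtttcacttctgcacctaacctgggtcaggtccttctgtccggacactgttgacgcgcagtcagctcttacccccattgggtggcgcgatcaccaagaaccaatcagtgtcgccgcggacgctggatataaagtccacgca
H2-D1 (chr17:35262844-35263143, plus strand): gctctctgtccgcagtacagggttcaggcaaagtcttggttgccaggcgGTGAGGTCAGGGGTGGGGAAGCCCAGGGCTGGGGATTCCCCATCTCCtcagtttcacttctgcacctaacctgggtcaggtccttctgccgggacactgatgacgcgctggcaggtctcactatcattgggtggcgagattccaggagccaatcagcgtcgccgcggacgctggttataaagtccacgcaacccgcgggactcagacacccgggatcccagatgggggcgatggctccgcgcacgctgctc
The shared run holds GGGGATTCCCC, the class I enhancer site known to bind NF-kappa B, which occurred in 10 of the 32851 promoters of the table on either strand (0.0304%). A few bases after the run both windows hold AGTTTCACTTCT, the interferon response sequence known from class I promoters, found in 11 promoters (0.0335%). Both of these motifs were picked after the windows had been read.

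Tap1 and Psmb9 lie head to head on opposite strands in a cluster of 34.3 kb that also holds Psmb8 and Tap2 (chr17:34182030-34216321). The start of Tap1 at 34187556 is 226 bases from that of Psmb9 at 34187330. Capitals mark the bases between them, which the windows of both genes hold.
Tap1 (chr17:34187306-34187605, plus strand): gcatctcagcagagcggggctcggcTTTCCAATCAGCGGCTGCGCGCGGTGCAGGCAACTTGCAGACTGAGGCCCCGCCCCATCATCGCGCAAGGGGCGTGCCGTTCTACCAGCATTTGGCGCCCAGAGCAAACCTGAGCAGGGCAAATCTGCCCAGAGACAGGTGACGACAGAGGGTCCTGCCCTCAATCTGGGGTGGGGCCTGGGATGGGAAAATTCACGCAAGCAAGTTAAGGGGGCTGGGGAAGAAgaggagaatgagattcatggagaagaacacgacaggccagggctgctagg
The first interferon motif searched was GAAA and GAAA with any 2 bases between them, the core of the interferon-stimulated response element, present in 3.44% of all promoters on either strand. Of the 8 genes with a window it matched B2m alone, at 139 bases before the start. The second, TTCNNNGAA, is the gamma-activated site and was present in 8.30% of promoters. It matched Psmb8 alone, 97 bases before the start, and both matches are in capitals.
B2m (chr2:122147437-122147736, plus strand): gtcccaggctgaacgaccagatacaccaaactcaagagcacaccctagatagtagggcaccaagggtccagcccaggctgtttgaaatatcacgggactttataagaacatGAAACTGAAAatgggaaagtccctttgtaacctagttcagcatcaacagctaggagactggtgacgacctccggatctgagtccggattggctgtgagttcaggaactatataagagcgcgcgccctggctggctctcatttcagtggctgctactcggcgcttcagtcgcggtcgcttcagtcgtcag
Psmb8 (chr17:34197945-34198244, plus strand): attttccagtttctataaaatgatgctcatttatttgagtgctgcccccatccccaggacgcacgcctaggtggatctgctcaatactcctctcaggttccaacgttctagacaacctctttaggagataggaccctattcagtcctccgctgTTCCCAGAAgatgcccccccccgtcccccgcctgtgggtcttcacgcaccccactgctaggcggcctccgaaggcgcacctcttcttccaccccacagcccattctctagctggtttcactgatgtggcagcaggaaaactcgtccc
The box CCAAT was present in 37.4% of promoters and in those of 6 of the 8 genes, B2m, H2-D1, H2-K1, Psmb9, Tap1 and Tapbp. The matches of Tap1 and Psmb9 are the same bases, chr17:34187334-34187338. Tap2 and Nlrc5 have no window in the table. None of the motifs overlapped another in these windows, and a match is a string of letters, not evidence of a bound factor.

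All 10 class I genes were higher in Vps15KO than in WT cells in basal medium, and 9 of the 10 were higher in EBSS, Psmb10 being the exception. Over all genes tested, 29.3% were called higher and 29.2% lower in Vps15KO cells in basal medium, and 29.4% higher and 27.8% lower in EBSS. Since the genes were listed with such results known, these counts describe the pathway and test nothing. The median log2 difference of the 10 genes was 1.40 in basal medium and 1.32 in EBSS, beside −0.01 and −0.00 over all genes tested. Among the 14279 genes ranked by their difference in basal medium, Psmb8 came 16th, H2-K1 33rd, Psmb9 48th, Nlrc5 103rd and Tap1 121st, while B2m (817th), Tapbp (1411th) and Psmb10 (2498th) came much lower. Together the 10 genes took 0.483 ± 0.0275% of the reads in Vps15KO EBSS libraries and 0.278 ± 0.00484% in WT EBSS libraries (SD, n = 3 each). In basal medium the shares were 0.504 ± 0.00339% in Vps15KO and 0.262 ± 0.00809% in WT libraries. Lower fibroblast markers and higher Cd68 moved with this difference between genotypes, and their part in it was not tested. The defining leukocyte gene Ptprc, at most 1.98 normalized counts, was near 0 in all groups.

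**Figure D1:**
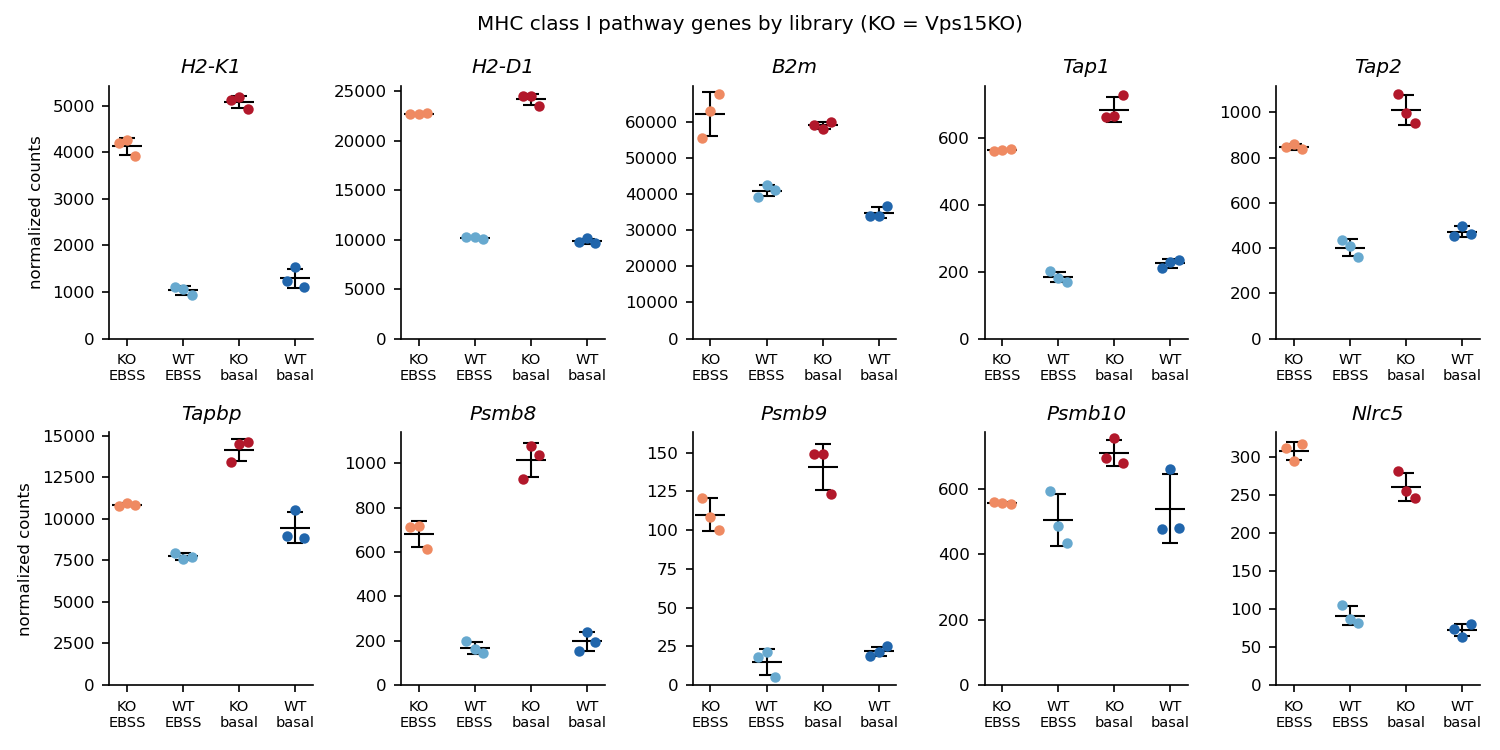
Normalized counts (y axis, linear from 0) of the 10 class I pathway genes in each of the 12 libraries, by group (x axis). Points are libraries, horizontal lines the mean and error bars the SD of 3 libraries. Vps15KO libraries lie above WT libraries of the same medium in every panel except Psmb10 in EBSS, where 1 WT library at 594 normalized counts lies above all Vps15KO libraries.

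H2-K1 (chr17:33996012-34000619) encodes the classical heavy chain H-2K. It had 4195, 4254 and 3918 normalized counts in Vps15KO cells in EBSS, against 1101, 1071.5 and 927 in WT cells in EBSS. The basal values were 5111, 5182 and 4928 in Vps15KO cells and 1234, 1524 and 1107 in WT cells. The lowest Vps15KO library lay far above the highest WT library in each medium. The ratio of means was 3.99 in EBSS (log2 difference 1.97 ± 0.09) and 3.94 in basal medium (1.97 ± 0.09).

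H2-D1 (chr17:35263094-35267497), the gene of the other classical heavy chain, H-2D, started from a higher level. Its values were 22654, 22685 and 22769 normalized counts in Vps15KO EBSS libraries and 10244, 10238 and 10107 in WT EBSS libraries. In basal medium they were 24530.1, 24522 and 23544 in Vps15KO and 9785, 10116 and 9623 in WT libraries. The genotypes were again far apart, and libraries of a group lay close together. The ratio of means was 2.23 in EBSS (1.15 ± 0.05) and 2.46 in basal medium (1.30 ± 0.05). H2-K1 therefore gained on H2-D1 in Vps15KO cells, where it had 18.2 ± 0.831% of the normalized counts of H2-D1 in EBSS and 21.0 ± 0.151% in basal medium, against 10.1 ± 0.842% and 13.1 ± 1.83% in WT cells (SD, n = 3 each). The heavy chain genes are related in sequence, so the counting may have split some of their reads unevenly, which was not measured. The labels do not give the mouse strain, whose alleles may differ from the reference.

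B2m (chr2:122147687-122153082), the light chain shared by all class I molecules, was the most abundant of the 10. It had 55514, 62852 and 67623 normalized counts in Vps15KO EBSS libraries, against 39199.6, 42394 and 41079 in WT EBSS libraries. In basal medium the values were 59016, 58041 and 59970.2 in Vps15KO and 33831, 34005 and 36644 in WT libraries. The groups did not overlap, but the gap was narrower than for the heavy chains, with ratios of 1.52 in EBSS (0.60 ± 0.08) and 1.69 in basal medium (0.76 ± 0.08). The sum of heavy chain reads thus moved more than light chain reads, and H2-D1 stood at 36.9% of B2m in Vps15KO and 25.0% in WT cells in EBSS, and at 41.0% and 28.3% in basal medium. B2m overlaps Patl2 on the opposite strand, and whether counting used the strand is not stated.

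Tap1 (chr17:34187556-34197225) and Tap2 (chr17:34204479-34216321) encode the subunits of the peptide transporter. Tap1 had 559.5, 563 and 566 normalized counts in Vps15KO EBSS libraries and 200.3, 180.1 and 169 in WT EBSS libraries, and in basal medium 661, 664 and 727 in Vps15KO and 210.4, 229 and 234 in WT libraries. Tap2 had 846, 859 and 837 in Vps15KO EBSS and 434, 410.1 and 361 in WT EBSS libraries, and in basal medium 1081, 999.7 and 953 in Vps15KO and 452, 499 and 464 in WT libraries. Neither gene's genotypes overlapped. The Tap1 ratio was 3.07 in EBSS (1.49 ± 0.08) and 3.05 in basal medium (1.50 ± 0.08), and that of Tap2 was 2.11 (1.03 ± 0.08) and 2.15 (1.06 ± 0.08), so Tap1 had the larger value of the pair, a difference that was not tested. Tap1 and Psmb9 overlap on opposite strands in the GENCODE annotation.

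Tapbp (chr17:33919478-33929290), the tapasin gene, rose less than Tap1 and Tap2 in value. It had 10763, 10943 and 10847 normalized counts in Vps15KO EBSS libraries and 7933, 7559 and 7698 in WT EBSS libraries. Basal values were 13387, 14474 and 14601 in Vps15KO and 8965, 10527 and 8861 in WT libraries, with WT basal replicate 2 the highest WT library. The groups did not overlap, and the ratios were 1.40 in EBSS (0.49 ± 0.07) and 1.50 in basal medium (0.58 ± 0.07). Tapbp shares bases with Zbtb22 on the same strand.

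In basal medium the immunoproteasome genes held both the highest and the lowest of the 10 log2 differences. Psmb8 (chr17:34198195-34201454), the inducible counterpart of Psmb5, had 715, 717 and 612 normalized counts in Vps15KO EBSS libraries against 197, 163 and 144 in WT EBSS libraries. Its basal values were 932, 1079 and 1037 in Vps15KO and 155, 241 and 196 in WT libraries. The ratio was 4.06 in EBSS (1.87 ± 0.12) and 5.14 in basal medium (2.23 ± 0.12), with no overlap in either.

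Psmb9 (chr17:34182030-34187330), the counterpart of Psmb6, was scarce in WT cells. It had 121, 108.5 and 99.8 normalized counts in Vps15KO EBSS libraries and 18.1, 21.4 and 5.10 in WT EBSS libraries, and in basal medium 149, 149 and 123.5 in Vps15KO and 19.0, 21.2 and 25.0 in WT libraries. Every Vps15KO library was above every WT library. The ratio of means was 7.38 in EBSS and 6.47 in basal medium, while the log2 differences of 1.90 ± 0.16 and 1.88 ± 0.16 are smaller than these ratios because the deposited scale compresses low counts.

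Psmb10 (chr8:105935728-105938392), the counterpart of Psmb7, differed least. In EBSS it had 560.5, 556 and 553 normalized counts in Vps15KO libraries and 594, 486 and 436 in WT libraries, which overlapped (ratio 1.10, log2 difference 0.14 ± 0.11, not called). In basal medium it had 696, 757 and 678.5 in Vps15KO and 477, 663 and 479.8 in WT libraries (ratio 1.32, 0.39 ± 0.11). The high WT libraries, at 594 and 663, were the pair that stood apart in reads per gene. With both left out the log2 difference in EBSS was 0.26 ± 0.07 and Psmb10 was called higher there too.

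Set against its constitutive counterpart in the same library, Psmb8 had 29.7 ± 4.42% of the normalized counts of Psmb5 in Vps15KO EBSS cells and 7.29 ± 1.03% in WT EBSS cells, and 33.2 ± 0.907% in Vps15KO and 6.84 ± 0.994% in WT cells in basal medium (SD, n = 3 each). Psmb9 had 3.16 ± 0.412% of Psmb6 in Vps15KO and 0.385 ± 0.224% in WT cells in EBSS, and 3.23 ± 0.373% and 0.444 ± 0.100% in basal medium. Psmb10 had 19.6 ± 1.72% of Psmb7 in Vps15KO and 16.5 ± 3.01% in WT cells in EBSS, and 23.7 ± 0.246% and 16.1 ± 1.74% in basal medium. The inducible share thus moved by several-fold for the Psmb5 and Psmb6 positions and much less for the Psmb7 position. In basal medium Psmb5, Psmb6 and Psmb7 themselves had log2 differences between Vps15KO and WT of 0.10 ± 0.07, −0.18 ± 0.08 and −0.15 ± 0.07, and none was called in either medium. The mRNA of all 3 constitutive subunits stayed above that of its counterpart in every group.

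**Figure D2:**
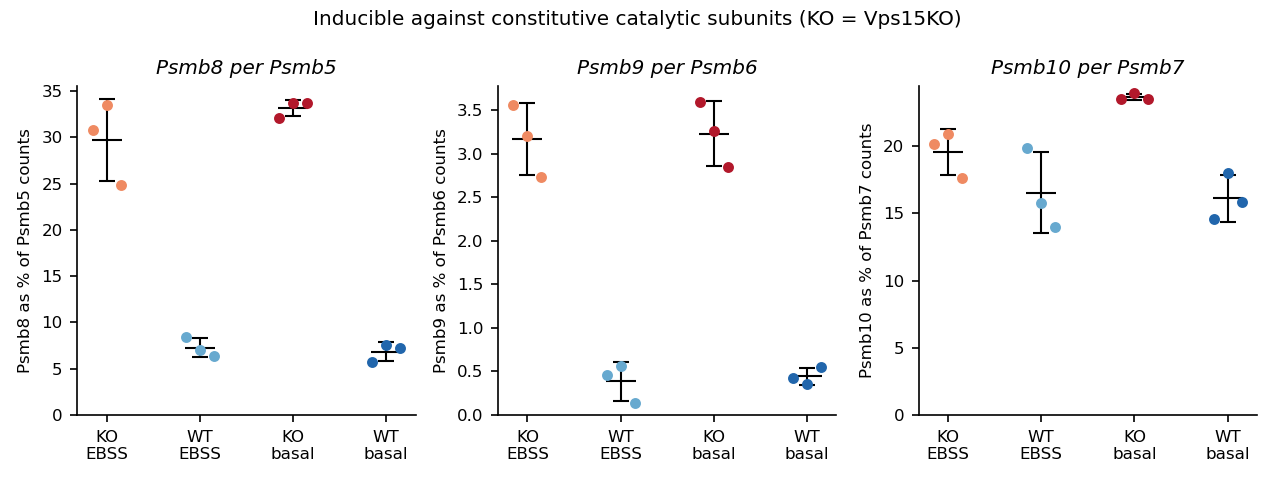
Normalized counts of each inducible catalytic proteasome gene as a percentage of those of the constitutive gene whose place its product takes (y axis, linear from 0), by group (x axis). Points are libraries, lines the mean and bars the SD of 3. Vps15KO libraries lie at 24.8% to 33.7% for Psmb8, all far above WT libraries, while for Psmb10 in EBSS the genotypes overlap.

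Nlrc5 (chr8:94434335-94527272), the regulator of class I promoters, had 313, 295 and 317 normalized counts in Vps15KO EBSS libraries and 106, 86.5 and 81.6 in WT EBSS libraries. Basal libraries held 282, 256 and 246 in Vps15KO and 74.2, 63.5 and 80.0 in WT libraries. The genotypes did not overlap, and the ratio was 3.38 in EBSS (1.52 ± 0.10) and 3.60 in basal medium (1.55 ± 0.10). It overlaps the noncoding gene 9330175E14Rik on the other strand.

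Per kilobase of annotated transcript, the order of levels in Vps15KO cells in basal medium was B2m (68616 normalized counts per kb), H2-D1 (11512), Tapbp (4884), H2-K1 (3134), Psmb8 (624), Psmb10 (542), Tap2 (294), Tap1 (232), Psmb9 (104) and Nlrc5 (34.5). In WT cells in basal medium the same leading genes stood at 40496 for B2m, 4682 for H2-D1, 3261 for Tapbp and 796 for H2-K1, followed by Psmb10 (412), Tap2 (137), Psmb8 (121), Tap1 (76.0), Psmb9 (16.1) and Nlrc5 (9.57). By basal means Psmb8 was placed above Psmb10 in Vps15KO and below it in WT cells, while in Vps15KO cells in EBSS Psmb10 came first (425 against 419 normalized counts per kb). Neighbours whose libraries overlapped were Psmb8 and Psmb10 in Vps15KO cells in both media, Tap2 and Psmb8 in WT cells in both media, and Nlrc5 and Psmb9 in WT cells in EBSS.

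The 2 h in EBSS asked whether starvation moved the pathway. In Vps15KO cells it lowered 6 of the 10 genes, H2-K1, Tap1, Tap2, Tapbp, Psmb8 and Psmb10, where 26.1% of all genes tested were called lower. The falls were small, from −0.25 ± 0.08 for Tap2 (limma adjusted p = 0.0104) and −0.27 ± 0.08 for Tap1 (0.00773) to −0.38 ± 0.07 for Tapbp (0.000114) and −0.56 ± 0.12 for Psmb8 (0.000906). H2-K1 fell by 0.30 ± 0.09 (limma adjusted p = 0.00944) and Psmb10 had −0.34 ± 0.11 (0.0169). The Psmb10 call was lost without Vps15KO basal replicate 2 (−0.29, limma adjusted p = 0.0732) and that of Tap2 without Vps15KO basal replicate 1 (−0.20, 0.0581). The other 4 were not called, namely Psmb9 (−0.30 ± 0.16), H2-D1 (−0.09 ± 0.05), B2m (0.07 ± 0.08) and Nlrc5 (0.22 ± 0.10). No gene was called higher by limma, where 25.9% of all genes were, while at an unadjusted p under 0.05 and by voom 1 was, Nlrc5 in each case. All 3 EBSS libraries of Nlrc5 lay above the 3 basal libraries. Nlrc5 was also called without WT basal replicate 2 (limma adjusted p = 0.045), and Psmb9 without WT EBSS replicate 3 (0.0358), since all groups share 1 estimate of the spread.

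In WT cells EBSS lowered 4 of the 10 genes, where 31.3% of all genes tested were called lower. H2-K1 had −0.30 ± 0.09 (limma adjusted p = 0.00685), Tap1 −0.26 ± 0.08 (0.00735), Tap2 −0.22 ± 0.08 (0.0162) and Tapbp −0.28 ± 0.07 (0.00116). All 4 were also lower in Vps15KO cells. The light chain and the regulator rose, where 31.4% of all genes did: B2m by 0.23 ± 0.08 (limma adjusted p = 0.0133) and Nlrc5 by 0.25 ± 0.10 (0.0354), with the EBSS libraries of both above the basal ones. The Nlrc5 call was lost in 11 of the alternatives, among them those without WT basal replicate 1 (0.27), WT basal replicate 2 (0.18) or WT EBSS replicate 1 (0.16), and the value was 0.10 without the pair of libraries that stood apart. Without WT EBSS replicate 2 the B2m call was lost (0.21, limma adjusted p = 0.0557). H2-D1 (0.05 ± 0.05), Psmb8 (−0.20 ± 0.12), Psmb9 (−0.32 ± 0.16) and Psmb10 (−0.08 ± 0.11) were not called. Leaving out 1 library ended the Tap2 call (−0.15 without WT EBSS replicate 3) and brought in falls of Psmb8 (−0.34 without WT basal replicate 1) and Psmb9 (−0.48 without WT EBSS replicate 2). For 10 genes these counts are near the shares over all genes. After removal of trends with transcript length and GC content only 1 of the 4 falls in WT cells was called. H2-K1 then had −0.06 in WT cells (limma adjusted p = 0.486) and −0.15 in Vps15KO cells (0.0697), Psmb10 had −0.15 in Vps15KO cells (0.145), and Nlrc5 had 0.07 in WT cells (0.556). H2-D1 was then called higher in WT cells (0.24, limma adjusted p = 0.000286).

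**Figure D3:**
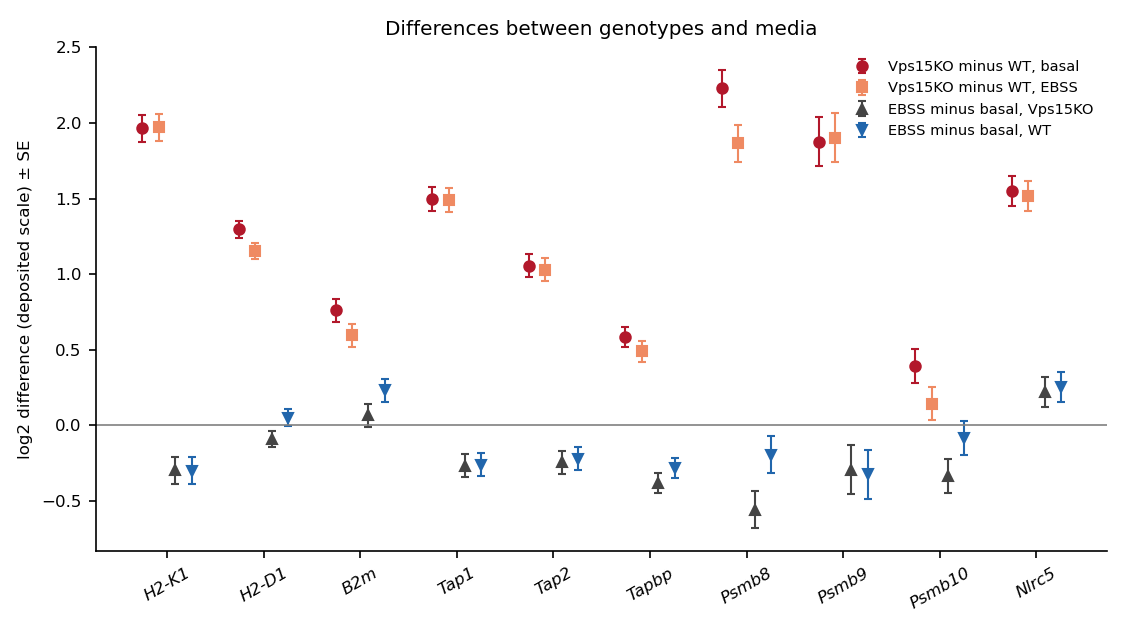
Log2 differences of the deposited values (y axis, with bars of 1 SE) for the 10 class I pathway genes (x axis), between genotypes in each medium and between media in each genotype. Genotype differences reach 2.23 for Psmb8 and lie above 0 for all 10 genes, and media differences lie between −0.56 and 0.25.

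Whether EBSS acted differently in the 2 genotypes was tested by the interaction term, Vps15KO minus WT. By limma none of the 10 genes was called, with adjusted p values of 0.16 (Psmb8) to 0.989 (H2-K1), where 17.8% of all genes tested were. Voom called none either, and at an unadjusted p under 0.05 there was 1 gene, Psmb8 (−0.36 ± 0.17). The interval of 2 SE around the H2-K1 difference ran from −0.25 to 0.26, that of Tap1 from −0.23 to 0.21 and that of Psmb8 from −0.71 to −0.02, so changes of such size are not excluded. Without WT basal replicate 2 Psmb8 had −0.50 (limma adjusted p = 0.0135) and Psmb10 −0.40 (0.0175), and both were called. With WT EBSS replicate 1 left out as well, they had −0.39 (limma adjusted p = 0.0268) and −0.28 (0.0387). With all libraries kept, both were also called with length and GC trends removed (−0.46, limma adjusted p = 0.03, and −0.34, 0.0461) and with library weights.

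The pathway around these genes was read from lists that were also drawn up with earlier results known. Other class I and class Ib heavy chains were mostly higher too. Of 9 tested, 7 were higher and 1 lower in Vps15KO cells in basal medium, with a median of 0.58. In EBSS 6 were higher and 1 lower, with a median of 0.52. Over all genes 29.3% were higher and 29.2% lower in basal medium, and 29.4% and 27.8% in EBSS. H2-Q4, a gene of the Qa region, had 469, 456 and 419.8 normalized counts in Vps15KO EBSS libraries and 82.5, 76.3 and 76.5 in WT EBSS libraries. In basal medium it had 520.5, 501 and 442 in Vps15KO and 75.2, 73.0 and 79.0 in WT libraries, a difference of 2.33 ± 0.09 (limma adjusted p = 4.66e-13) that lay above the 2.23 of Psmb8 in value. H2-T23, which encodes Qa-1, rose by 1.36 ± 0.08 (6.07e-11) and Hfe, an iron regulator with a class I fold, by 0.86 ± 0.12 (9.87e-06). Fcgrt, the neonatal Fc receptor gene, was the 1 that fell (−0.50 ± 0.07, limma adjusted p = 9.93e-06). Reads of H2-Q4 and H2-T23 may be shared with near-identical copies. EBSS lowered 4 of the 9 in Vps15KO cells, led by H2-T22 (−0.31 ± 0.07, limma adjusted p = 0.00156), and 3 in WT cells, led by H2-T22 (−0.39 ± 0.07, 0.000147) and H2-M3 (−0.40 ± 0.10, 0.0024). Over all genes 26.1% and 31.3% were lower.

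Peptide trimming and loading genes rose in part. Of 11 tested, 7 were higher and 2 lower in Vps15KO cells in basal medium, with a median of 0.20. In EBSS 5 were higher and 2 lower, with a median of 0.10. Over all genes 29.3% were higher and 29.2% lower in basal medium, and 29.4% and 27.8% in EBSS. The 2 lower genes were Calr (−0.39 ± 0.07 in basal medium, −0.47 ± 0.07 in EBSS) and Pdia3 (−0.25 ± 0.06 and −0.39 ± 0.06). Erap1, the aminopeptidase that trims peptides in the endoplasmic reticulum, had 1207, 1149 and 1046 normalized counts in Vps15KO EBSS libraries and 714.5, 809 and 664.7 in WT EBSS libraries. Basal levels were 1104, 1069 and 1144 in Vps15KO and 532, 506 and 518 in WT libraries (1.05 ± 0.07, limma adjusted p = 1.4e-09). Lap3, a leucine aminopeptidase, rose by 0.58 ± 0.06 (limma adjusted p = 8.01e-08) and Nrd1, a peptidase of the cytosol, by 0.36 ± 0.05 (1.27e-05). Tapbpl, a tapasin relative that edits bound peptides, rose by 0.65 ± 0.07 in basal medium (5.84e-07) but differed by 0.08 ± 0.07 in EBSS (limma adjusted p = 0.358). Its level in WT cells was 531 ± 36.0 in EBSS and 277 ± 15.0 in basal medium, and its interaction term was −0.57 ± 0.10 (limma adjusted p = 0.00104). Erap1 also had a lower EBSS effect in Vps15KO than in WT cells (−0.43 ± 0.11, limma adjusted p = 0.00821).

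Proteasome activators were mostly not called between genotypes. Of 5 activator and assembly genes, 1 was called higher in Vps15KO cells in basal medium, Psme3, a nuclear activator gene (0.34 ± 0.07, limma adjusted p = 0.000279). Over all genes tested 29.3% were. Psme1, an interferon-inducible activator subunit, had −0.13 ± 0.08 there (0.176). In EBSS Psme3 was called higher (0.54 ± 0.07, limma adjusted p = 1.91e-06) and Pomp lower (−0.22 ± 0.07, 0.00845), where 29.4% and 27.8% of all genes were. Under EBSS 2 of the 5 rose and 3 fell in Vps15KO cells, where 25.9% and 26.1% of all genes did. In WT cells 0 rose and 2 fell, where 31.4% and 31.3% of all genes did. EBSS lowered Psme1 (−0.39 in Vps15KO, −0.43 in WT) and Psme2 (−0.48 and −0.32), and among the constitutive subunits it lowered Psmb5 (−0.40 ± 0.07 in Vps15KO, limma adjusted p = 0.000119, and −0.31 ± 0.07 in WT, 0.000872) and Psmb6 (−0.32 ± 0.08, 0.00381, and −0.36 ± 0.08, 0.00116).

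Factors that bind class I promoters and carry interferon signals went both ways: of 26 tested, 10 were higher and 6 lower in Vps15KO cells in basal medium, and 10 higher and 8 lower in EBSS, counts near the shares over all genes (29.3% and 29.2%, and 29.4% and 27.8%). Irf1, an interferon regulatory factor that acts on class I promoters, had 5687, 6394 and 6096 normalized counts in Vps15KO EBSS libraries and 2255, 2310 and 2087 in WT EBSS libraries. In basal medium it had 3160, 3203 and 3238 in Vps15KO and 1867, 1656 and 1830 in WT libraries. Its difference was 1.44 ± 0.06 in EBSS (limma adjusted p = 2.46e-12) and 0.83 ± 0.06 in basal medium (3.45e-09), with an interaction of 0.60 ± 0.09 (0.000153). EBSS raised Irf1 by 0.91 ± 0.06 in Vps15KO cells (limma adjusted p = 1.37e-09) and by 0.31 ± 0.06 in WT cells (0.00036). The highest EBSS difference of the 10 class I genes was 0.22 in Vps15KO cells and 0.25 in WT cells. Stat2 rose by 0.79 ± 0.07 (limma adjusted p = 1.68e-08) and Irf7 by 0.83 ± 0.09 (4.04e-07) in basal medium, while Socs1, an inhibitor of JAK kinases, fell by 0.81 ± 0.08 (2.09e-07). Irf9, the partner of Stat2 in interferon signalling, had −0.03 ± 0.07 in basal medium (limma adjusted p = 0.703), and EBSS raised it by 0.99 ± 0.07 in Vps15KO cells (1.32e-09) with an interaction of 0.69 ± 0.10 (9.42e-05).

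Of 15 genes tested among typical targets of interferon gamma, 12 were higher in Vps15KO cells in basal medium and all 15 in EBSS. Over all genes tested 29.3% and 29.4% were higher. The medians of the list were 0.73 and 0.87. Gbp6, a guanylate-binding GTPase gene, had 1060 ± 82.6 normalized counts in Vps15KO EBSS, 355 ± 55.0 in WT EBSS, 761 ± 20.6 in Vps15KO basal and 200.5 ± 14.3 in WT basal libraries (SD, n = 3 each), a basal difference of 1.79 ± 0.09 (limma adjusted p = 3.08e-11). Cd274, the gene of the checkpoint ligand PD-L1, rose by 1.55 ± 0.11 (limma adjusted p = 1.59e-09), Gbp5 by 2.11 ± 0.18 (1.87e-08) and Tgtp1, an immunity-related GTPase gene, by 0.96 ± 0.09 (1.1e-07). Under EBSS 11 of the 15 rose in Vps15KO cells, where 25.9% of all genes did. In WT cells 8 rose and 1 fell, where 31.4% and 31.3% of all genes did. The class I genes mostly fell or were not called under EBSS. Irgm1 rose by 1.36 ± 0.09 in Vps15KO cells (limma adjusted p = 5.52e-10), with an interaction of 0.84 ± 0.13 (0.000151), and Cd274 by 1.05 ± 0.11 in WT cells (2.21e-07). The interferon genes that were read were near 0, but Ifng, the gene of interferon gamma itself, was not among them. Of 5 in the table (Ifnb1, Ifna2, Ifna4, Ifnl2 and Ifnl3) none had enough reads to be tested, and Ifnb1 had at most 2.94 normalized counts in Vps15KO libraries and 0 in all WT libraries.

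Genes that act on class I molecules after synthesis were mixed, with 3 higher and 4 lower of 9 in Vps15KO cells in basal medium. These counts are near the shares over all genes (29.3% and 29.2%). Susd6 and Tmem127, reported in human cells to act together in removing class I from the surface, went opposite ways (0.84 ± 0.11, limma adjusted p = 4.8e-06, and −0.35 ± 0.06, 6.5e-05). WT basal replicate 2 was the low library for Susd6, at 1314 normalized counts beside 2077 and 2018. Marchf9, a membrane ubiquitin ligase gene, had 218.5 ± 21.7 normalized counts in Vps15KO and 109 ± 5.70 in WT cells in EBSS (0.86 ± 0.10, limma adjusted p = 1.11e-06). EBSS changed it by −1.42 ± 0.10 in WT cells (limma adjusted p = 1.77e-09).

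Of 12 class II pathway genes 4 had enough reads to be tested, Cd74, the invariant chain gene, Ciita, and the peptide exchanger genes H2-DMa and H2-DMb1. H2-Eb2 and H2-Ob were at 0 in every library, and the class II chains H2-Aa and H2-Eb1 were near 0. Cd74 had 157, 203 and 181 normalized counts in Vps15KO EBSS and 32.2, 41.7 and 36.7 in WT EBSS libraries, and in basal medium 202, 246 and 217 in Vps15KO and 35.1, 68.8 and 35.0 in WT libraries (1.83 ± 0.15, limma adjusted p = 8.47e-09). H2-DMb1 rose by 0.60 ± 0.11 (limma adjusted p = 0.000145), and Ciita, the class II counterpart of Nlrc5, had −0.50 ± 0.16 (0.0105).

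**Figure D4:**
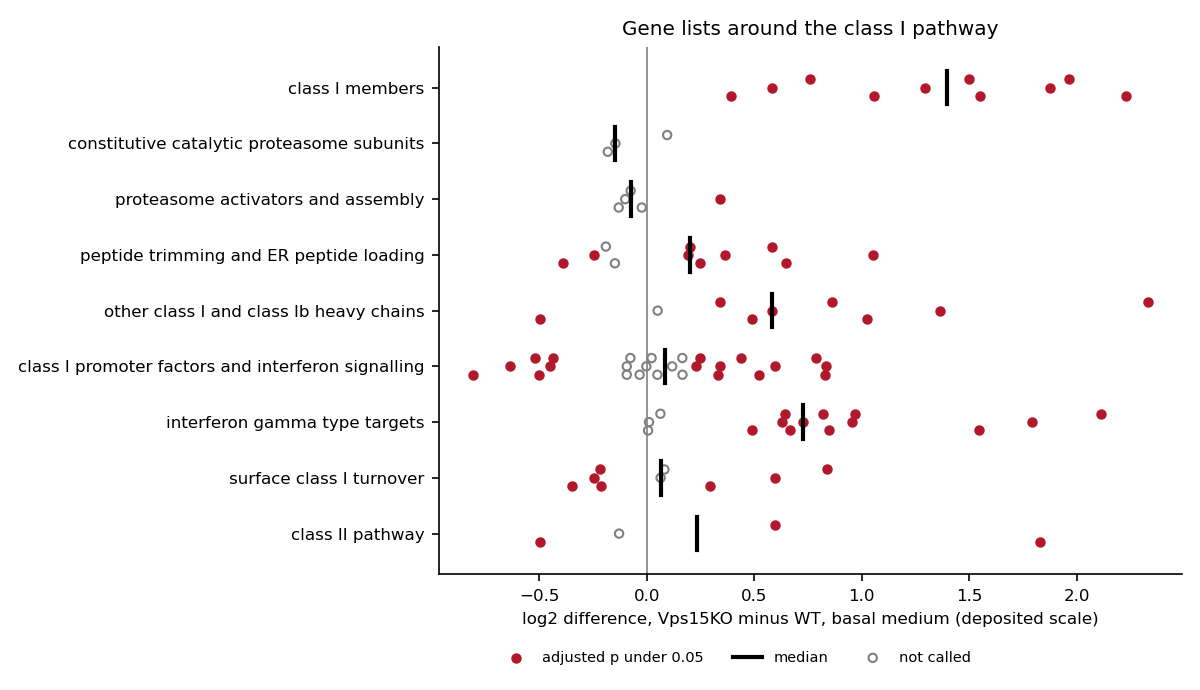
Log2 differences between Vps15KO and WT cells in basal medium (x axis, deposited scale) for the tested genes of each list (rows), with filled points for genes at adjusted p under 0.05, open points for the others and a bar at each list's median. The median of the 10 class I pathway genes lies at 1.40, that of the interferon gamma type targets at 0.73 and that of the constitutive catalytic subunits at −0.15.

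The genes nearest in pattern were found by the Euclidean distance between deposited log2 values, each centred on its own mean, over the 12 libraries. For H2-K1 they were Gsta3 (distance 0.332), a glutathione transferase gene, Plac8 (0.435) and Psmb8 (0.541). For Psmb9 they were Plac8 (0.559), Sp140 (0.609) and H2-K1 (0.655). The neighbours of Tap1 were Esd (0.335), Oit3 (0.340) and Sqle (0.352), a sterol synthesis gene, and those of Nlrc5 were Vldlr (0.363), Cth (0.466) and Cyp51 (0.480). Of these 12 places, 2 were taken by class I pathway genes.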

How the data were processed

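Poly-A RNA of 12 libraries was sequenced on a DNBSEQ-G400 from a dUTP protocol, per the labels. The submitters' processing notes list the build mm10 and, among tools, featureCounts and STAR 2.7.10b, and do not say which step each served. Whether counting used the strand is not given in the sources used here. The authors deposited 1 table of variance-stabilized log2 values for 32721 genes. A count of 0 has the value 3.83 on this scale. Working back from it turned every value into a whole number of reads (tolerance 0.001), and gave size factors between 0.945 and 1.02. For counting error alone, a value at 0 leaves room for up to 3 reads in a library.

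The 14279 genes whose mean lay 1 or more above that value entered the test. Limma 3.58.1 (R 4.3.3) estimated group means over all 12 libraries with moderated variances and a variance trend, and tests were two-sided with Benjamini-Hochberg adjustment over these genes in each of 5 comparisons. The threshold for a call was an adjusted p of 0.05. The fit was also run on simulated reads with few genes changed, in Vps15KO basal libraries alone, and with no library set apart. Here far more genes were called and some WT libraries stood apart, so that run does not bear on these calls. The comparisons between genotypes share libraries with those between media. No label says that the 3 libraries of a group came from separate cultures, so p-values measure the spread between these samples. The 10 genes and all lists were chosen with earlier results of these data known. The naming rule took from each list up to 4 tested genes with the smallest p between genotypes in basal medium and up to 2 in each other comparison. Most genes named are among these, and Calr and Pdia3 were added as the 2 of their list called lower in Vps15KO cells. Nrdc was read as Nrd1. H2-L, H2-Q2, Cd1d2, Ifna1, Ifng and Ncr1 were not analysed here under those symbols, and 1 further gene of the lists is not reported here. Positions and promoters are from RefSeq GRCm38.p6, and transcript lengths from GENCODE M21. Marker sums are RPM.

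Deviations of same-numbered libraries from their group means were positively correlated between genotypes in each medium (0.039 to 0.26), but not between media (−0.155 to 0.0125). Between genotypes, libraries with unlike numbers had −0.212 to 0.106 in basal medium and −0.111 to −0.012 in EBSS. The value of 0.26 came from replicate 2 in basal medium, whose WT library stood apart. Replicate numbers were not taken as pairs, and pairing within a medium was not fitted. Alternatives were the replicate block, other filters and scalings, library weights, voom on the whole reads, removal of length and GC trends, stricter calls and each library left out.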

Additional observations from a re-analysis of the deposited data

Results flagged for a closer look

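None of the 10 class I genes had an EBSS effect that differed between genotypes in the limma test. In the lists around them 15 genes did, a share of their tested genes near the 17.8% called over all genes. Of the 15 genes the naming rule picks 8. Of 26 promoter and signalling factors 4 were higher and 1 lower, and of 15 interferon gamma type targets 4 were higher. Of 11 trimming and loading genes 3 were lower, and of 9 surface turnover genes 1 was higher and 2 lower. The other lists held none, among 9 other heavy chain, 5 activator and assembly, 3 constitutive subunit and 4 class II genes tested. The difference, EBSS effect in Vps15KO minus that in WT on the log2 scale, was 0.69 for Irf9, 0.60 for Irf1, 0.84 for Irgm1, 0.58 for Tgtp1 and 0.79 for Marchf9. It was −0.57 for Tapbpl, −0.43 for Erap1 and −0.43 for Marchf8. Irgm1 had 4339 ± 204 normalized counts in Vps15KO and 2409 ± 342 in WT cells in EBSS, and 1671 ± 13.2 and 1670.1 ± 184 in basal medium (SD, n = 3 each). Irf9 had 3645 ± 113 in Vps15KO and 2318 ± 263 in WT cells in EBSS, and 1819 ± 7.75 and 1861 ± 34.8 in basal medium. In both of these genes the genotypes were near each other in basal medium and apart in EBSS, unlike H2-K1, whose ratio was 3.99 in EBSS and 3.94 in basal medium. With 3 libraries in each group, no library was tested for standing apart in a single gene.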

How the results depend on the processing

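The count of class I genes higher in Vps15KO cells stayed at 10 in basal medium and at 9 or 10 in EBSS under library exclusions, the replicate block and removal of length and GC trends, and was 7 in each medium where a log2 change of at least 1 was required. No called result changed sign, while several values near 0 that were not called did, such as Psmb10 under EBSS in WT cells. The counts for EBSS were less stable. In Vps15KO cells the count of genes raised by EBSS, 0 in the reported fit, was 1 (Nlrc5) with library weights, with only the groups compared, with voom, and with WT basal replicate 2 and WT EBSS replicate 1 both left out. The count lowered, 6 in the reported fit, was 0 when a log2 change of at least 1 was also required, and 4 at adjusted p under 0.01 (Tap2 and Psmb10 lost) and with length and GC trends removed (H2-K1 and Psmb10 lost). In WT cells the count raised, 2, was 1 with no filter, library weights, only the groups compared, voom or both libraries left out, and 0 at adjusted p under 0.01 or with a log2 change of at least 1. The count lowered, 4, was 0 with that log2 change and 1 with length and GC trends removed. For the difference of the EBSS effect the count lower, 0, was 2 with library weights and with both libraries left out (Psmb8 and Psmb10), and 3 with length and GC trends removed, where H2-D1 joined them. The causes were not tested. With 1 library left out in turn, genes raised by EBSS ranged from 0 to 1 in Vps15KO and 1 to 2 in WT cells, genes lowered from 5 to 7 and 3 to 5, and the interaction count from 0 to 2, the highest without WT basal replicate 2.

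The paired fit with the replicate block gave 10 and 9 genes higher in Vps15KO cells in basal medium and EBSS, 6 lower in Vps15KO and 4 lower and 2 higher in WT cells under EBSS, and changed no call of the 10 genes. That fit used the same term for a replicate number in both media, so it does not test pairing within a medium. Same-number correlations of residuals were 0.0905, 0.26 and 0.0825 between genotypes in basal medium and 0.124, 0.039 and 0.118 in EBSS, and −0.155 to 0.0125 between media. Psmb9, at 5.10 to 25.0 normalized counts in WT libraries, is the gene most limited by depth.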
